A study of Mus musculus with 3 samples.

Results

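Striatal projection neurons, the GABA neurons that carry the output of the striatum, read dopamine and adenosine through cAMP. The 9 genes described here encode this cascade: the receptors Drd1, Drd2, Adora2a and Gpr6, the G protein subunits Gnal and Gng7, the adenylyl cyclase Adcy5, the PKA target Ppp1r1b (DARPP-32) and the G protein off-switch Rgs9. They were chosen by gene symbol for their place in the pathway, with earlier results of these data known. Shares of all genes given beside them are thus a description and no test. Each of the 9 was found once among the 54532 genes of the deposited table. RNA came from prelimbic cortex (PrL) tissue, in 1 library for each of 3 groups. Male C57BL/6J mice, 6 to 8 weeks old when bought, received an AAV/9 vector in the PrL on both sides after a period of acclimatization. The CUMS vehicle group received rAAV-hSyn-bGH-polyA-CMV-EGFP, the CUMS oe-circ group the vector for the circular RNA circFKBP8(5S,6), rAAV-hSyn-circFKBP8-bGH-polyA-CMV-EGFP, and the CUMS oe-pep group a vector for cFKBP8, the protein that this RNA encodes, in which hSyn drives the peptide with a 3×Flag tag, joined to EGFP by P2A, with an hGH polyA signal. The libraries are called vehicle, oe-circ and oe-pep from here on. The hSyn promoter drives expression in neurons, EGFP is carried by all 3 vectors, and all mice then went through 5 weeks of chronic unpredictable mild stress (CUMS). No unstressed library was analysed here. The number of mice behind a library was not given in the sources used here, so the differences given here lack replicates and the groups were not tested.

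In the direct pathway, dopamine acts on D1 receptors, whose G protein, made of the alpha subunit encoded by Gnal and a gamma subunit encoded by Gng7, stimulates adenylyl cyclase 5. In the indirect pathway, adenosine receptors feed the same stimulatory G protein, while D2 receptors inhibit the cyclase. cAMP activates protein kinase A (PKA), which turns DARPP-32 into an inhibitor of protein phosphatase 1. Rgs9 speeds the shut-off of inhibitory G proteins. All of these genes are known for high expression in striatum, and several, such as Drd1 and Ppp1r1b, are also known from deep layers of the cortex.

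Reads in genes numbered 18084058 in vehicle, 14413544 in oe-circ and 16410635 in oe-pep. Levels are FPKM, fragments scaled by gene length and library size, and intervals are exact 95% intervals of the reads, which cover counting error only and compare libraries, not groups. Mouse Fkbp8 had an FPKM of 80.5, 78.0 and 77.2. The paper describes circFKBP8(5S,6) as primate-specific, so the mouse gene is not its source here. These values do not separate RNA of the mouse gene from any read of the vectors and so are no check of overexpression. The label gives PrL, and 12 genes of cortical excitatory neurons all had reads in each library, with a summed FPKM of 408, 508 and 441. Genes listed as markers of neurons outside the cortex were also present, at unequal levels. Their presence alone does not show tissue from outside the cortex, since cortical expression of the listed genes was not checked. The 12 genes of striatal projection neurons of both pathways, none of them at 0, summed to 290, 164 and 311, and 7 genes of basal forebrain cholinergic neurons to 16.3, 1.85 and 6.83. How much tissue next to the PrL each library holds was not tested, and with 1 library a group it cannot be told apart from the vector.

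All 9 genes had their lowest FPKM in the oe-circ library. Against vehicle, 8 of the 9 were lower by more than 2-fold and 0 were higher, with Gnal as the exception, and the median log2 fold change was −1.43. Over the 20203 genes tested, those whose FPKM averaged 0.1 or more, a limit that all 9 passed in every library, 6.42% were more than 2-fold lower and 3.50% more than 2-fold higher, and the median was 0.00. That share depends on weakly expressed genes: among the 14551 genes that averaged 20 reads or more, as all 9 did, 1.04% were more than 2-fold lower in oe-circ, 0.385% in oe-pep and 0.921% in oe-circ against oe-pep. In oe-pep, 0 of the 9 were more than 2-fold lower or higher, where 4.93% and 4.54% of all genes were, and their median was −0.15. The FPKM of the 9 genes summed to 495 in vehicle, 206 in oe-circ and 449 in oe-pep. In bulk tissue, fewer cells that express these genes and less of their RNA per cell cannot be told apart.

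**Figure D1:**
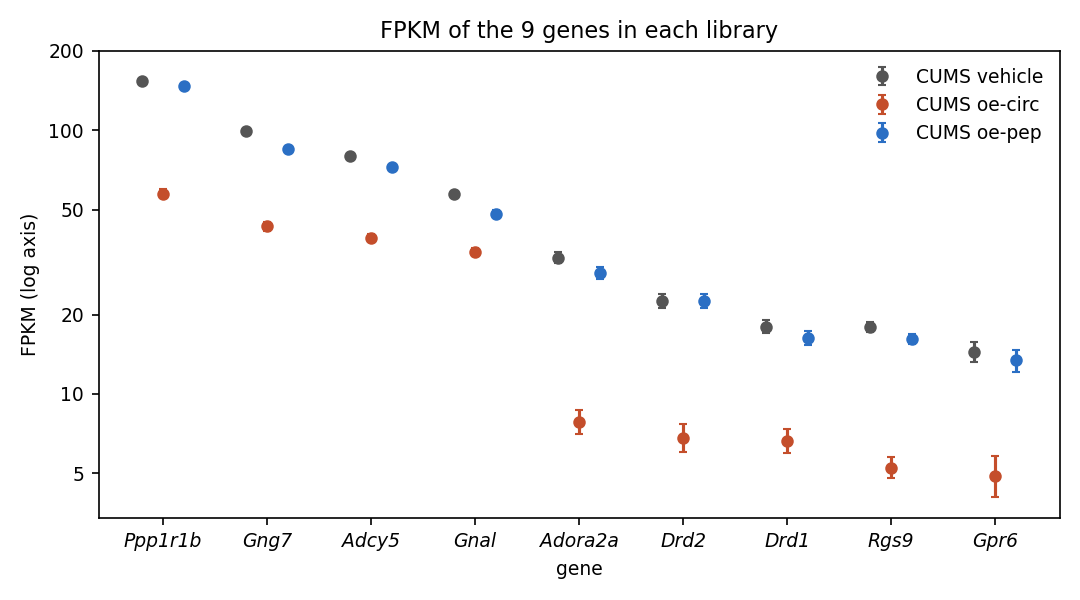
FPKM (log axis) of the 9 genes in the CUMS vehicle (gray), CUMS oe-circ (red) and CUMS oe-pep (blue) libraries, 1 point per library with the exact 95% counting interval. For every gene the red point is the lowest, from 57.4 for Ppp1r1b to 4.89 for Gpr6, while the gray and blue points lie close together.

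Drd1, the receptor of direct pathway neurons (ENSMUSG00000021478, chromosome 13, 54051183 to 54055705, mm10), had an FPKM of 18.0 in vehicle (17.0 to 19.1), 6.63 in oe-circ (5.95 to 7.36) and 16.3 in oe-pep (15.3 to 17.3). The oe-circ value lay far below both others. It was 2.72-fold lower in the oe-circ than in the vehicle library (2.41 to 3.07), on 350 and 1211 reads, and 1.11-fold lower in the oe-pep library (1.02 to 1.21).

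Drd2, the inhibitory dopamine receptor of indirect pathway neurons (ENSMUSG00000032259, chromosome 9, 49340627 to 49408177), had an FPKM of 22.5 in vehicle (21.2 to 23.9), 6.83 in oe-circ (6.01 to 7.72) and 22.6 in oe-pep (21.2 to 24.0). The vehicle and oe-pep values were nearly equal, at a ratio that counting error leaves between 0.914 and 1.09 (vehicle over oe-pep). In the oe-circ library Drd2 was 3.30-fold lower than in the vehicle library (2.87 to 3.80).

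Adora2a, the adenosine receptor of the same neurons (ENSMUSG00000020178, chromosome 10, 75316877 to 75334784), was the gene with the largest fold of the 9 in oe-circ, against vehicle and against oe-pep. Its FPKM was 32.9 in vehicle (31.4 to 34.4), 7.83 in oe-circ (7.03 to 8.70) and 28.8 in oe-pep (27.3 to 30.3). The fold against the vehicle library was 4.20 lower in oe-circ (3.75 to 4.72), on 349 and 1865 reads, and 1.14 lower in oe-pep (1.07 to 1.23). Of the 14551 tested genes that averaged 20 reads or more, 23 had a lower log2 fold change in oe-circ than Adora2a.

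Gpr6, an orphan receptor of indirect pathway neurons that raises cAMP without an added ligand (ENSMUSG00000046922, chromosome 10, 41069977 to 41072285), had the lowest level of the 9. Its FPKM was 14.4 in vehicle (13.2 to 15.8), 4.89 in oe-circ (4.07 to 5.81) and 13.4 in oe-pep (12.1 to 14.7). It was 2.95-fold lower in oe-circ (2.42 to 3.62), on 127 and 477 reads, the widest interval of the 9. For oe-pep the interval of the fold, 0.943 to 1.24 lower, included no difference.

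The start regions of 3 of these receptors are shown as examples. cAMP signaling acts on genes through CREB, a factor that binds the cAMP response element TGACGTCA, which reads the same on both strands. Whether CREB has a part in the values of these genes was not tested. RefSeq promoter windows (GRCm38.p6, the assembly named mm10 elsewhere) of 250 bases before to 50 after the start were matched for 6 of the 9 genes, in 8 windows. The full element was found in 1 of the 8 windows, that of Gpr6, where it starts 78 bases before the start site, and in 1.79% of all 32851 windows. The short form TGACG, searched on both strands and contained in the full element, was found in 2 of the 8 windows, those of Gpr6 and of an inner start of Gng7, and in 20.8% of all windows. Such matches are letters in a window, not sites shown to be used, and both Drd1 and Drd2 lacked them in the windows searched. The 250 bases before the start are printed 5′ to 3′ with the element in capitals, for Drd1 at its outer start only.
Drd1, chr13:54055659-54055908, minus strand: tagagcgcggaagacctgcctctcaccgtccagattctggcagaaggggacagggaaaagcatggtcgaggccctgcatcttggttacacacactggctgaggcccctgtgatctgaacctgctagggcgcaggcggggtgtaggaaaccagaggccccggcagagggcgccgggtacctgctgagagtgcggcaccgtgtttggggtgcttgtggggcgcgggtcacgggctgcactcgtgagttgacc
Drd2, chr9:49340153-49340402, plus strand: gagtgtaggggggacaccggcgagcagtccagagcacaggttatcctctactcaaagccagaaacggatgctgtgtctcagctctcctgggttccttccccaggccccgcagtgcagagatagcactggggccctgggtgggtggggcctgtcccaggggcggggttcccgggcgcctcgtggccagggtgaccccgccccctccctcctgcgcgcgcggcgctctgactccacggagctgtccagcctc
Gpr6, chr10:41072291-41072540, minus strand: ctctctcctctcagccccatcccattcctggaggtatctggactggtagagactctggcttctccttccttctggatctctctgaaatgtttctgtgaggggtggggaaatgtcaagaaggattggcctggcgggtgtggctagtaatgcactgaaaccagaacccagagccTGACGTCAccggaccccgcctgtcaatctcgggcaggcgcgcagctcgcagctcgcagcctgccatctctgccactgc

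The G protein subunits and the cyclase had higher levels than the receptors and the smallest folds of the 9 in oe-circ against vehicle, while in oe-pep Gnal and Gng7 had the largest. Gnal encodes the olfactory-type stimulatory alpha subunit, which stands in for the common stimulatory subunit in striatum (ENSMUSG00000024524, chromosome 18, 67088336 to 67226792). Its FPKM was 57.3 in vehicle (55.8 to 58.7), 34.4 in oe-circ (33.2 to 35.7) and 48.2 in oe-pep (46.8 to 49.6). The 3 intervals did not overlap, with oe-pep between the others, and the fold against the vehicle library was 1.66 lower in oe-circ (1.59 to 1.74) and 1.19 lower in oe-pep (1.14 to 1.23). Gnal thus missed 2-fold in oe-circ by its whole interval. Its span holds Chmp1b on the same strand, with 489, 359 and 417 reads against 6106, 2885 and 4651 reads of Gnal, so reads in shared bases are uncertain. Mppe1 overlaps it on the opposite strand, with 201, 168 and 178 reads. The genes that overlap other members had at most 28 reads in a library.

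Gng7 encodes the gamma subunit that pairs with this alpha subunit (ENSMUSG00000048240, chromosome 10, 80948624 to 81014945). Its FPKM was 99.6 in vehicle (97.3 to 102), 43.2 in oe-circ (41.5 to 45.0) and 84.6 in oe-pep (82.3 to 86.9). The values were again separate in all 3 libraries, 2.31-fold lower in oe-circ (2.20 to 2.42) and 1.18-fold lower in oe-pep (1.14 to 1.22) than in vehicle. Among the 12 gamma subunit genes, Gng7 held 35.1% of the summed FPKM in the vehicle library, 19.2% in oe-circ and 31.5% in oe-pep. It ranked 1 in the vehicle and oe-pep libraries and 2 in oe-circ. Gng3, a gamma subunit found throughout the forebrain, had a log2 fold change of 0.04 in oe-circ and −0.12 in oe-pep.

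Adcy5, the main cAMP-forming enzyme of striatal neurons (ENSMUSG00000022840, chromosome 16, 35154877 to 35305738), had the most reads of the 9 genes. Its FPKM was 79.5 in vehicle (78.0 to 81.1), 39.1 in oe-circ (37.9 to 40.3) and 72.2 in oe-pep (70.7 to 73.7). It stood just past 2-fold in oe-circ, at 2.03-fold lower with an interval of 1.96 to 2.11 that reaches below 2, and was 1.10-fold lower in oe-pep (1.07 to 1.13). Among the 10 adenylyl cyclase genes, Adcy5 held 36.3% of the summed FPKM in the vehicle library and ranked 1, 18.9% in oe-circ and ranked 3, and 29.5% in oe-pep and ranked 2. Adcy1, a calcium-stimulated cyclase of cortical neurons, had an FPKM of 76.0, 94.5 and 103, so that the ratio of Adcy5 to Adcy1 was 1.05 (1.02 to 1.07) in vehicle, 0.414 (0.400 to 0.428) in oe-circ and 0.698 (0.681 to 0.715) in oe-pep.

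Ppp1r1b, which encodes DARPP-32 (ENSMUSG00000061718, chromosome 11, 98348404 to 98357796), had the highest level of the 9 in every library. Its FPKM was 153 in vehicle (150 to 156), 57.4 in oe-circ (55.2 to 59.7) and 147 in oe-pep (144 to 151). It was 2.67-fold lower in oe-circ than in vehicle (2.55 to 2.79). In oe-pep it was 1.04-fold lower (1.01 to 1.07), a small difference beyond counting error. Against Slc17a7, the vesicular glutamate transporter of cortical excitatory neurons, Ppp1r1b had a ratio of 0.651 in vehicle (0.635 to 0.668), 0.208 in oe-circ (0.199 to 0.217) and 0.581 in oe-pep (0.566 to 0.597).

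Rgs9, which shortens the signal of D2 receptors (ENSMUSG00000020599, chromosome 11, 109225355 to 109298129), had the second largest fold of the 9 in oe-circ against vehicle. Its FPKM was 17.9 in vehicle (17.2 to 18.7), 5.26 in oe-circ (4.80 to 5.75) and 16.1 in oe-pep (15.4 to 16.9). It was 3.41-fold lower in oe-circ (3.09 to 3.77), a fold not separated from that of Drd2 by counting error, and 1.11-fold lower in oe-pep (1.04 to 1.19). Among 21 Rgs genes it ranked 4 by FPKM in the vehicle and oe-pep libraries and 12 in oe-circ. Rgs4, the Rgs gene with the highest level, had an FPKM of 115, 143 and 124.

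**Figure D2:**
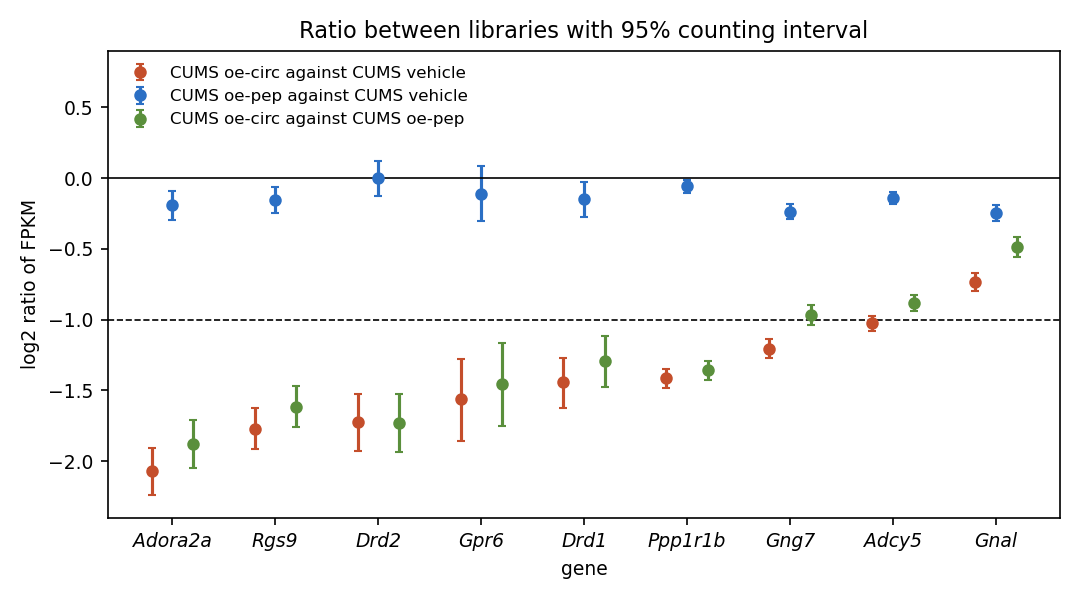
Log2 ratio of FPKM of the 9 genes between libraries, oe-circ against vehicle (red), oe-pep against vehicle (blue) and oe-circ against oe-pep (green), with exact 95% counting intervals and a dashed line at 2-fold lower. In red, Adora2a is lowest at 4.20-fold lower and Gnal is highest at 1.66-fold lower, and the blue points lie at or just below 0.

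The order of levels was the same in the 3 libraries and ran from Ppp1r1b through Gng7, Adcy5, Gnal, Adora2a, Drd2, Drd1 and Rgs9 to Gpr6. Drd1 and Rgs9 could not be separated by their intervals in the vehicle and oe-pep libraries. In the oe-circ library, Adora2a from Drd2, Drd2 from Drd1 and Rgs9 from Gpr6 could not be separated. The ratio of Ppp1r1b to Drd1 was 8.49 (7.99 to 9.02), 8.66 (7.74 to 9.71) and 9.05 (8.46 to 9.68) in the vehicle, oe-circ and oe-pep libraries, with overlapping intervals. The ratio of Adora2a to Drd1 was 1.82 in vehicle (1.70 to 1.96), 1.18 in oe-circ (1.02 to 1.37) and 1.77 in oe-pep (1.63 to 1.92), so the oe-circ value stood below both others.

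The sizes of the oe-circ difference were unequal among the 9 genes. Of the 36 pairs of genes, 30 had unequal folds against the vehicle library beyond counting error, by the exact interval of the ratio of their folds. Adora2a was lower than Gnal by a further 2.52 times (2.23 to 2.86), than Adcy5 by 2.07 times (1.83 to 2.34), than Drd1 by 1.54 times (1.30 to 1.83) and than Drd2 by 1.27 times (1.06 to 1.53). The 4 receptors had a median log2 fold change of −1.63, and the other 5 genes one of −1.20. Of the indirect pathway receptors, Drd2 was lower than Drd1 by a further 1.21 times (1.01 to 1.46), while the ratio for Gpr6 (0.859 to 1.38) included no difference. In oe-pep, 11 of the 36 pairs had unequal folds, with at most 1.19 times between them (Drd2 and Gnal, 1.08 to 1.31).

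In the direct comparison of the overexpression libraries, all 9 genes were lower in oe-circ than in oe-pep. This comparison and those with vehicle share libraries. Past 2-fold, 6 of 9 were lower and 0 higher, where 6.26% of all genes were lower and 4.31% higher, and the median of the 9 was −1.36. Adora2a was 3.67-fold lower (3.27 to 4.14), Drd2 3.31-fold (2.88 to 3.81) and Rgs9 3.06-fold (2.77 to 3.39). Gpr6 was 2.74-fold lower (2.24 to 3.37), Ppp1r1b 2.56-fold (2.45 to 2.68) and Drd1 2.45-fold (2.17 to 2.78). The 3 genes that missed 2-fold were Gng7 at 1.96-fold (1.86 to 2.05), Adcy5 at 1.84-fold (1.78 to 1.92) and Gnal at 1.40-fold (1.34 to 1.47). Counting intervals lay wholly below an equal FPKM for 9 of 9 genes here and for 12.7% of all genes. For oe-circ against vehicle this held for 9 of 9 genes and 12.3% of all genes. For oe-pep against vehicle it held for 7 of 9 genes, without Drd2 and Gpr6, and 11.7% of all genes. Counting intervals narrow as reads rise, and all tested genes include many with fewer reads than the 9. Ppp1r1b, on 8296 reads in vehicle and 7214 in oe-pep, had such an interval at only 1.04-fold lower. No share was computed for genes matched to the 9 in reads, so these shares do not set the 9 apart. The oe-pep differences were at most 1.19-fold lower, and single libraries do not show how much replicates would vary.

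**Figure D3:**
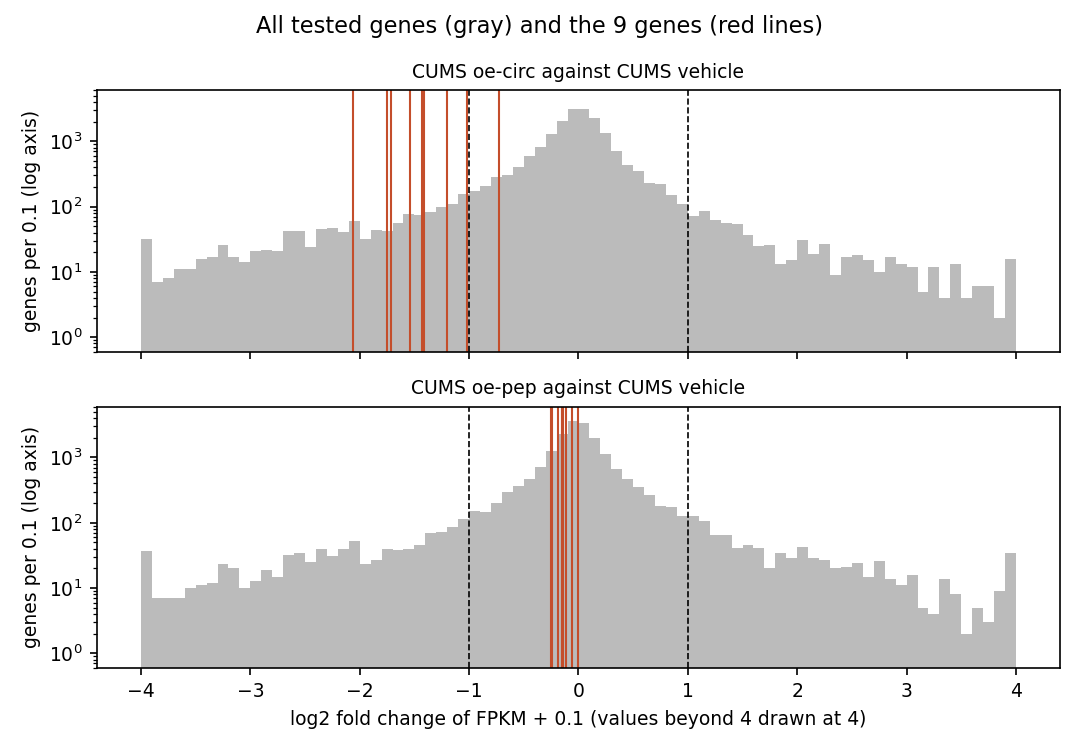
Number of tested genes (gray, log axis) by log2 fold change against the CUMS vehicle library, for oe-circ (top) and oe-pep (bottom), with the 9 genes as red lines and dashed lines at 2-fold. In oe-circ, 8 of the red lines lie left of the dashed line at −1, and in oe-pep all 9 lie between −0.25 and 0.00.

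Elsewhere in the pathway few genes passed 2-fold. Of 108 other genes in 9 lists, 101 were tested, and 3 of them were more than 2-fold lower in oe-circ and none higher (0), with a median of −0.02. In oe-pep 1 was lower and 0 higher, with a median of 0.00. Those lower in oe-circ included the phosphodiesterase gene Pde10a, known for striatal expression, and the D3 receptor gene Drd3. Drd3, named here after its values were seen, was also the gene lower in oe-pep, and had only 34 reads in vehicle, 2 in oe-circ and 5 in oe-pep.

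The other genes of the cyclase, G protein and RGS lists did not pass 2-fold against the vehicle library. Of the 8 other adenylyl cyclases tested, 0 passed 2-fold in either library, and their log2 medians were 0.17 in oe-circ and 0.02 in oe-pep. The 11 other alpha subunits had medians of −0.06 and 0.06, and the 13 beta and gamma subunits −0.06 and −0.01. Gnao1 and Gnai1, the inhibitory alpha subunits that D2 receptors can use, had an FPKM of 67.1, 65.3 and 66.9 and of 79.0, 83.2 and 78.1. The 16 other RGS genes and anchors had medians of −0.11 and −0.07.

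Of the genes downstream of cAMP, none passed 2-fold, though some were lower and others higher in oe-circ beyond counting error. The 10 genes of PKA had medians of −0.02 in oe-circ and −0.07 in oe-pep, with 0 past 2-fold. Prkar1b, a regulatory subunit, had the highest level at an FPKM of 244, 290 and 232. It was higher in oe-circ, at a ratio to vehicle of 1.19 (1.16 to 1.22). Prkar2b, another regulatory subunit, had an oe-circ to vehicle ratio of 0.725 (0.672 to 0.782), and Arpp21, a PKA target of striatal neurons in the list of DARPP-32 relatives, one of 0.726 (0.702 to 0.751). Among 16 tested relatives, phosphatases and kinases of DARPP-32, 0 passed 2-fold (medians 0.06 and −0.03), and the calcineurin gene Ppp3ca, which reverses the PKA site of DARPP-32, stood at 139, 137 and 137. The 11 effectors of CREB and MAP kinase signaling had medians of −0.06 and 0.01, with 0 past 2-fold.

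Receptors and phosphodiesterases close to the 9 genes were mixed. Of 11 related receptors tested, 2 were more than 2-fold lower in oe-circ (median 0.10) and 1 in oe-pep (median 0.06), and of 5 striatal phosphodiesterases 1 was in oe-circ (median −0.73) and 0 in oe-pep (median −0.10). The receptor genes Adora1 (25.8, 28.6 and 29.4) and Chrm1 (25.6, 29.5 and 26.7), which cortical neurons also express, had their lowest FPKM in vehicle (values in the order vehicle, oe-circ and oe-pep). The Gpr6 relatives Gpr3 and Gpr12 had log2 fold changes of 0.18 and −0.40 in oe-circ. Chrm4, a muscarinic receptor of direct pathway neurons, had an FPKM of 20.2, 18.6 and 23.7, a fold in oe-circ whose interval (0.953 to 1.24 lower) included no difference. Pde10a stood at 27.6, 9.63 and 28.9 and Pde1b at 76.2, 38.3 and 68.0. Pde10a was 2.86-fold lower in oe-circ (2.72 to 3.02) and Pde1b 1.99-fold (1.91 to 2.07).

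**Figure D4:**
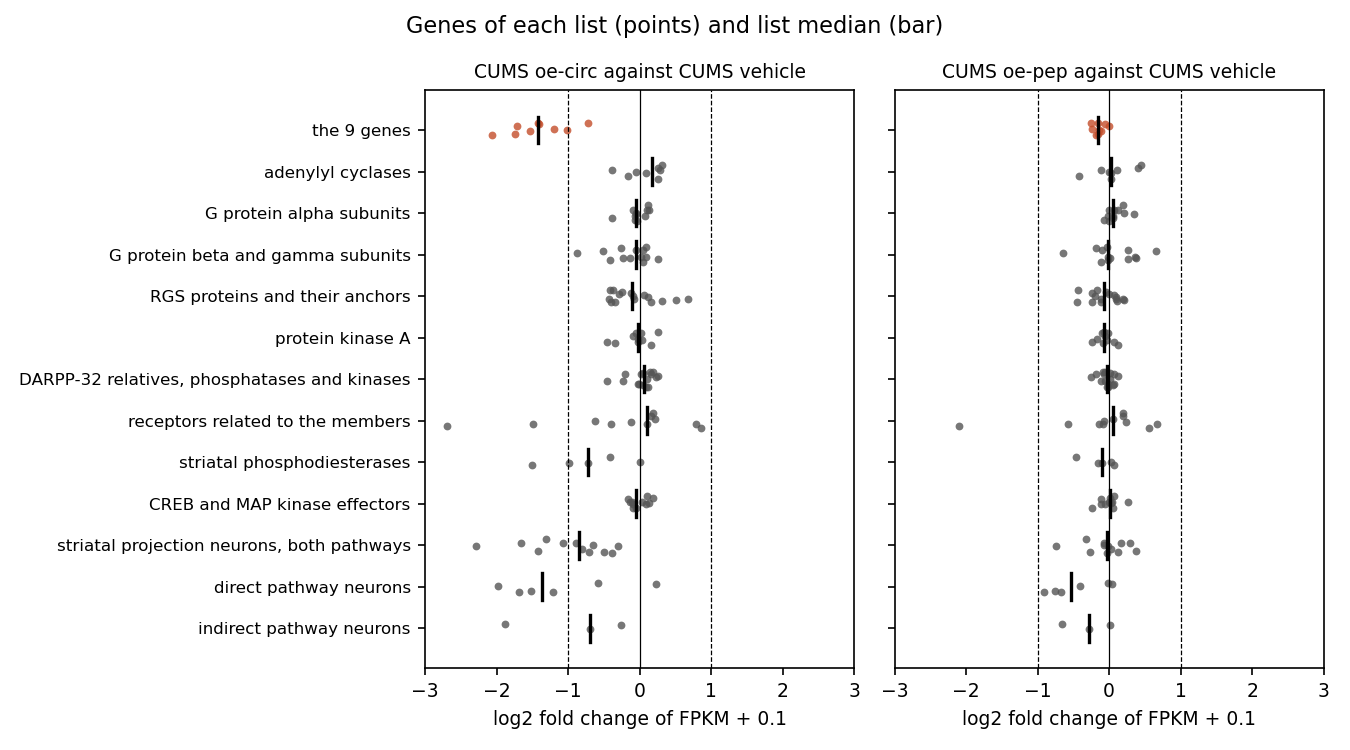
Log2 fold change against the CUMS vehicle library for the 9 genes (red) and the genes of 12 lists (gray), 1 point per gene with the median as a bar, for oe-circ (left) and oe-pep (right). The 9 genes center on −1.43 in oe-circ and −0.15 in oe-pep, while lists such as protein kinase A center near 0 in both.

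Some markers of striatal neurons outside the cascade were also more than 2-fold lower in oe-circ. Of 12 genes of both pathways, all 12 had a log2 fold change below 0 in oe-circ (−2.29 to −0.31). More than 2-fold lower were 5 in oe-circ and 0 in oe-pep, with medians of −0.85 and −0.03. Six3, a transcription factor gene, had the lowest value at −2.29, Syndig1l and Lrrc10b had −1.66 and −1.42, and Rarb and Rasgrp2 were the others. Of 6 direct pathway markers 5 were below 0 in oe-circ. More than 2-fold lower were 4 in oe-circ (Tac1, Pdyn, Isl1 and Slc35d3) and 0 in oe-pep, with medians of −1.37 and −0.54. Eya1, of the same list, was not lower in oe-circ, at a log2 fold change of 0.22 and a ratio to vehicle of 1.18 (0.933 to 1.48), and is named after its values were seen. Of 3 indirect pathway markers all 3 were below 0 in oe-circ. More than 2-fold lower were 1 in oe-circ (Penk) and 0 in oe-pep, with medians of −0.70 and −0.28. How far the values of the 9 genes move with these markers was not tested.

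Genes of other cells also differed between these libraries. All 7 genes of basal forebrain cholinergic neurons were more than 2-fold lower in oe-circ (median −2.75), with a summed FPKM of 16.3, 1.85 and 6.83 and none at 0. In oe-pep 3 of the 7 were lower, Lhx8, Gbx1 and Ngfr (median −0.94). All 12 cortical excitatory genes were above 0 in oe-circ (0.18 to 0.65, median 0.38), and their median in oe-pep was 0.12. The 7 oligodendrocyte genes had medians of −0.23 in oe-circ and 0.51 in oe-pep, and of 6 ependymal and choroid plexus genes 4 were more than 2-fold higher in oe-pep (Ttr, Folr1, Foxj1 and Ccdc153) and 1 in oe-circ (Folr1, named after its values were seen, on 1, 11 and 10 reads). The 7 interneuron genes (medians −0.23 and −0.18), 5 astrocyte genes (0.08 and 0.22), 5 microglial genes (−0.12 and −0.12) and 4 endothelial genes (−0.03 and −0.02) had 0 past 2-fold in either library. The interneuron genes were split in oe-circ, with 5 of the 7 below 0. Gad2 (−0.80) and Slc32a1 (−0.66), which GABA neurons in general express, were lower, and Vip (0.81) and Pvalb (0.46) were higher. These 4 are named after their values were seen. The part of these other cell types in the values of the 9 genes was not tested.

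The neuropeptide precursor genes parted from receptor genes of the 9 in the oe-pep library, a contrast chosen after the values were seen. Penk, the enkephalin precursor of indirect pathway neurons, had an FPKM of 241, 65.5 and 152 in the vehicle, oe-circ and oe-pep libraries. Its ratio of oe-pep to vehicle was 0.630 times that of Drd2 (0.572 to 0.694) and 0.722 times that of Adora2a (0.667 to 0.781). Tac1, the substance P precursor of direct pathway neurons, had 0.655 times the oe-pep to vehicle ratio of Drd1 (0.581 to 0.739). Pdyn, the dynorphin precursor, had 0.589 times that ratio (0.521 to 0.666). These peptide genes were thus lower relative to the receptor genes in oe-pep. Other listed markers of these neurons were mixed. Six3 and Isl1 had oe-pep to vehicle ratios of 0.586 (0.487 to 0.703) and 0.600 (0.418 to 0.852). Syndig1l and Lrrc10b had ratios of 1.22 (1.13 to 1.33) and 1.29 (1.20 to 1.39). Of the 12 genes of both pathways, 7 had a log2 fold change below 0 in oe-pep. For oe-circ against vehicle the corresponding values were 0.898 for Penk and Drd2 (0.774 to 1.05), 0.941 for Tac1 and Drd1 (0.799 to 1.11) and 1.16 for Pdyn and Drd1 (0.993 to 1.36), whose intervals all include equal folds, while Penk was lower by less than Adora2a (1.14, 1.01 to 1.30).

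The genes most like the 9 over the 3 libraries were sought among 11108 others that averaged an FPKM of 1 and 100 reads or more, by the distance of their centered log2 values from the median profile of the 9. Among the nearest were Dlx6 (distance 0.124), Pde10a (0.163), Stk32a (0.168), Nexn (0.193) and Rxrg (0.202). Dlx6, a homeobox gene of forebrain GABA neurons, had an FPKM of 4.32, 1.50 and 3.62, and Rxrg, a retinoid X receptor gene, 14.6, 5.42 and 16.4. Of the 9 genes themselves, Ppp1r1b lay nearest to the median profile (0.036) and Gnal farthest (0.658), with 105 of the other genes nearer than Gnal. Profiles over 3 libraries are a description and many genes can share one.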

How the data were processed

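PrL tissue was sequenced as 1 RNA library per group, and libraries were assigned to groups by the vector in their labels. The authors made 1 table of FPKM with a length for each gene. According to the submitters' processing notes the tools were featureCounts 1.6.3, HISAT2 2.1.0 and cutadapt 2.5, the build was mm10, and the labels give a stranded mRNA kit. Whether counting used the strand was not given in the sources used here. FPKM times gene length was a whole multiple of 1 step in each library, within 3.35e-10 of a read, which gave the reads. The paper states limma with a 2-fold and a P threshold; with 1 library a group, the size alone was used, as the difference of log2(FPKM + 0.1), a pseudocount that makes folds of weakly expressed genes too small, in genes averaging an FPKM of 0.1 or more. Intervals at 95% were Clopper-Pearson (ratios of reads), Poisson (levels) and exact conditional odds ratio (ratios of folds).

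The 9 genes and the 20 other gene lists were chosen with earlier results of these data known. All 9 genes were named, with the 3 most expressed genes of each list, list genes past 2-fold against the vehicle library with a mean of at least 20 reads, and the 6 most similar genes. Of these, only those that serve a comparison are printed; Gpr3, Gpr12, Chrm4, Prkar2b, Arpp21 and the peptide contrasts were chosen after their values were seen. Gpr52 was not found under that symbol, and 1 gene that the rule names is not reported here. Of the 9 genes, 8 had the same coordinates in GENCODE vM21, and the other, Gnal, is given as in the table. Of the promoters, 6 of 9 genes matched in the RefSeq table, without Adora2a, Gnal and Ppp1r1b. The steps were tested on simulated reads that held counting error only, which cannot show variation between animals. Intervals were computed with scipy 1.17.1, tables with pandas 2.3.3 and numpy 2.4.6 and plots with matplotlib 3.10.9, in Python 3.11.15. Alternatives were pseudocounts of 0.01 and 1, median ratio scaling, an equal sum without mitochondrial genes, no filter on low genes, and filters at an average FPKM of 1 or at 20 reads.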

Additional observations from a re-analysis of the deposited data

How the results depend on the processing

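Under all 7 alternatives, 8 of the 9 genes were more than 2-fold lower in oe-circ than in vehicle, 0 in oe-pep, and 6 in oe-circ against oe-pep. Of 189 values of single genes, 187 stayed within their counting interval and 0 were counted as reversed. Drd2 in oe-pep, at a log2 fold change of 0.00, came to −0.00 with an equal sum without mitochondrial genes. With a pseudocount of 1, Rgs9 stood at −1.60 against vehicle and −1.45 against oe-pep, and the median of the 9 in oe-circ against oe-pep at −1.29. Adcy5 passed 2-fold by little, with an interval that reaches 1.96.

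Counts over all genes depended on low values. For oe-circ against vehicle, 1297 genes were lower and 707 higher. A pseudocount of 1 gave 153 and 70, a mean FPKM of at least 1 gave 174 and 82, and a mean of at least 20 reads 151 and 48. No filter gave 1923 and 1090, and a pseudocount of 0.01 gave 1753 and 1027. The number of genes counted also changes, from 54532 without a filter to 13033 at a mean FPKM of at least 1. As a share of the genes counted, those lower were 6.42% in the main setting. The alternatives, in the order given, had 0.757%, 1.34%, 1.04%, 3.53% and 8.68%. For oe-pep against vehicle, 995 were lower and 917 higher. The same settings, in the same order, gave 107 and 109, 90 and 90, 56 and 53, 1624 and 1444, and 1354 and 1301. The shares lower were 0.530%, 0.691%, 0.385%, 2.98% and 6.70%. For oe-circ against oe-pep, 1265 were lower and 870 higher. The same settings gave 157 and 94, 148 and 84, 134 and 48, 1887 and 1318, and 1703 and 1197. The shares lower were 0.777%, 1.14%, 0.92%, 3.46% and 8.43%. A larger pseudocount shrinks the folds of genes with few reads, a stricter filter drops those genes and no filter adds them. No paired analysis was possible because each group had 1 library. With 1 library a group, depth limits only the counting error, and variation between animals was not measured.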
